A study of Mus musculus with 4 samples.

Results

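The stretch of the mouse X chromosome from 30 to 60 Mb was examined for reads from the inactive X in female embryonic fibroblasts with and without SmcHD1. Genes of the X chromosome whose start lies in this stretch of the mm9 build were taken, and Rpl39, Firre and the Magea, Mageb, Xlr, Rhox, Ssx and Slx families were left out, which kept 145 of 179 genes there and of 952 X-linked genes in the table. Of these 145 genes, 62 were informative, meaning that all 4 libraries had a paternal share and the mean depth was at least 20 allele-specific reads. Another 54 had no allele-specific read in any library, and 29 had reads but missed the minimum. The tested fibroblasts (MD1) had the genotype Smchd1 MD1/MD1 with Xist deltaA/+, and their controls (WT) had Smchd1 +/+ with Xist deltaA/+, with 2 libraries each. All came from E13.5 female fetuses of C57BL6/J mothers, which carried Xist-deltaA, and F1 fathers of JF1 and C57BL6/J. The labels do not say how many fetuses or cultures stand behind the libraries.

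In female mammals Xist RNA coats 1 X chromosome, and silencing marks then spread along it. SmcHD1, an atypical SMC protein, is recruited to the inactive X once Xist has coated it, and is known for its part in keeping genes silent there and in methylation of their CpG islands. The X that lacks the A repeat of Xist cannot be silenced, so the maternal B6 X is the active one in each cell of these cultures, and reads with JF1 variants come from the paternal, inactive X. The percentage of allele-specific reads that carry JF1 variants is called the paternal share below.

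Smchd1 had a mean of 1.94 FPKM in MD1 and 14.7 FPKM in WT. Xist RNA was paternal in all libraries, at 99.9% in both MD1 libraries and 99.8% and 99.9% in the WT libraries. Allele-specific reads of the 145 genes totalled 76254 and 100236 in MD1 and 59177 and 68102 in WT. The 10 fibroblast markers were all present, at 8.87 to 2802 FPKM in MD1 and 4.79 to 2790 FPKM in WT. They summed to 5568 FPKM in MD1 and 6056 FPKM in WT, but single markers differed in both directions. Col1a1 had 1081 FPKM in MD1 against 1688 FPKM in WT, and Fn1 had 940 FPKM in MD1 against 370 FPKM in WT. Lists of 4 to 6 genes for blood, endothelium, neural cells, epithelium and skeletal muscle had lower sums. These were 3.35 to 123 FPKM in MD1 and 3.69 to 120 FPKM in WT. The muscle list summed to 35.1 FPKM in MD1 against 119 FPKM in WT. In the neural list Stmn2 was higher in MD1, at 24.8 FPKM against 9.62 FPKM in WT. Nes of the same list was lower, at 65.6 FPKM in MD1 against 82.5 FPKM in WT. Single genes of these lists overlapped the fibroblast range, with Lyz2 at 86.8 FPKM and Nes at 65.6 FPKM in MD1, while Tek had 0.0589 FPKM. The part of these other cell types in the results below was not tested.

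Genes of the segment were almost silent on the paternal X in WT, and most gave paternal reads in MD1. The mean paternal share over the 62 genes was 17.9% and 19.1% in the MD1 libraries, against 0.201% and 0.231% in the WT libraries. Both MD1 libraries lay far above both WT libraries, and the difference of 18.3 points exceeded the SD within MD1 (0.850) and within WT (0.0211, n = 2 each). With 2 libraries against 2 the exact permutation p cannot fall below 0.333 (two-sided), and it was 0.333 here. In edgeR's quasi-likelihood test 48 members (77.4%) rose, 14 did not pass and 0 fell (0 also at an unadjusted p under 0.05, and 0 in DESeq2), beside 74.4% of all 391 informative X genes that rose. Both MD1 libraries exceeded both WT libraries at 51 genes (82.3%), beside 77.5% of all informative X genes. The adjusted p of the 48 genes ran from 5.99e-110 for Lamp2 to 0.0151 for Fam122b in edgeR. The size of such values depended on the read filter. In edgeR at a mean of 50 or more reads, the adjusted p was 7.59e-18 for Lamp2 and 5.38e-14 for Hprt. The exponents given below are therefore no measure of the strength of evidence from 2 libraries per group.

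The rise was uneven along the map. In MD1 17 genes had a mean share of 30% or more, 21 had 10 to 30%, and 24 had less than 10%. The middle 50% of genes ranged between 4.80% and 31.97%, and the highest was 44.2%. In bins of 5 Mb, all 9 genes at 35 to 40 Mb rose with a median rise of 35.9 points, 10 of 13 rose at 30 to 35 Mb with a median of 11.5 points, and 0 of 3 passed at 40 to 45 Mb. Of 19 genes at 45 to 50 Mb 16 rose, with a median of 19.1 points over the 19. At 50 to 55 Mb 12 of 16 rose with a median of 14.3 points, and at 55 to 60 Mb 1 of 2 rose. The bins hold between 2 and 19 genes, so these medians describe the genes measured and not the whole stretch. The 2 MD1 libraries ordered the 62 genes much alike, with a Spearman correlation of 0.952 across genes and a median gap of 1.49 points, given as a description.

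**Figure D1:**
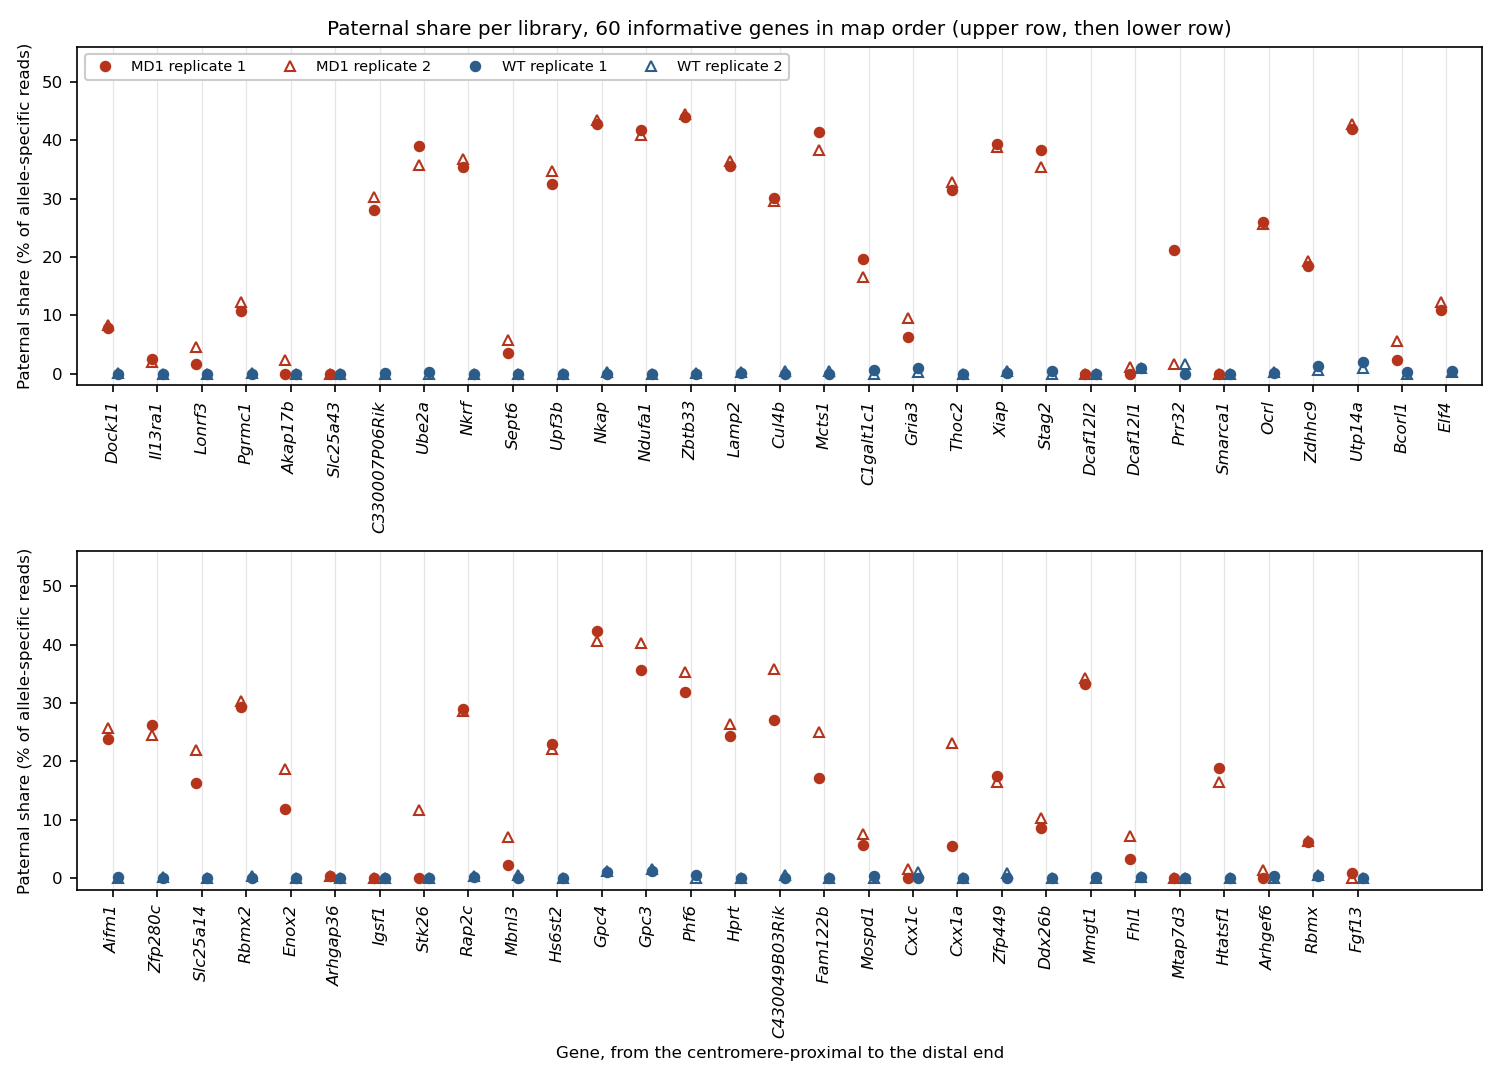
Paternal share in percent of allele-specific reads (vertical axis) for 60 of the 62 informative genes in map order (horizontal axis, continued in the lower row). Red symbols are the 2 MD1 libraries and blue symbols the 2 WT libraries; MD1 values range from 0% to 44.5% over the genes, while WT values stay at or below 2.10%.

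At the proximal edge the shares were low. Dock11 (X, 33428827 to 33616557), which encodes an activator of the GTPase Cdc42, had 7.82% and 8.43% in MD1 against 0% and 0.115% in WT. Il13ra1, a receptor subunit for interleukin 13, had 2.58% and 2.07% in MD1, the smallest mean among the genes that rose, against 0 of 1576 reads in WT, a limit of 0.190%. Both genes rose in edgeR (adjusted p = 2.66e-23 and 2.30e-09), and at each the MD1 libraries lay above the WT libraries. Pgrmc1 (X, 34138220 to 34146074), a heme-binding membrane protein gene and 1 of the 8 most deeply read members, had 10.7% and 12.3% in MD1 against 0% and 0.0740% in WT. Its rise of 11.5 points passed in edgeR (adjusted p = 2.93e-66). Next to it Akap17b, of the A-kinase anchor family, had 0% and 2.45% in MD1 against no paternal read in 261 WT reads (limit 1.15%). Only MD1 replicate 2 stood above WT, and Akap17b did not pass (adjusted p = 0.0649, edgeR). Lonrf3, with 7 of 191 MD1 reads paternal against 0 of 104 in WT, did not pass either (adjusted p = 0.0868, edgeR).

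Distal to these low genes a stretch of high shares began. From C330007P06Rik to Mcts1 (X, 34388539 to 35966699) 10 of 11 informative genes had mean MD1 shares of 29.2% to 44.2%. Zbtb33 (X, 35542970 to 35550223), which encodes Kaiso, a zinc-finger protein that binds methylated DNA, was the highest of the 62. It had 44.0% and 44.5% in MD1 against 0% and 0.0777% in WT, where 1 of 2587 reads was paternal. The groups lay 44.2 points apart with a spread of 0.356 within MD1 (SD, n = 2; adjusted p = 7.14e-110, edgeR). Nkap (X, 34666758 to 34690741), a nuclear transcription and splicing regulator gene, had 42.8% and 43.5% in MD1 against 0% and 0.257% in WT (adjusted p = 8.98e-83, edgeR). Ndufa1 (X, 34727584 to 34731233), a subunit gene of respiratory complex I, had 41.7% and 40.9% in MD1 and no paternal read among 1527 WT reads, a limit of 0.196% (adjusted p = 4.36e-82, edgeR). At these genes each MD1 library exceeded each WT library by over 40 points.

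Lamp2 (X, 35754534 to 35809637), a lysosomal membrane protein gene with 9100 and 12193 MD1 reads, had 35.7% and 36.5% in MD1 against 0.195% and 0.242% in WT. Mcts1 (X, 35953835 to 35966699), a translation re-initiation factor gene, had 41.4% and 38.4% in MD1 against 0% and 0.459% in WT (adjusted p = 6.08e-32, edgeR). Ube2a, a ubiquitin-conjugating enzyme gene, had a mean of 37.4% ± 2.28 in MD1 and 0.126% ± 0.179 in WT (SD, n = 2). The NF-kappaB repressor gene Nkrf, the nonsense-mediated decay gene Upf3b and the cullin gene Cul4b had 36.2%, 33.7% and 29.8% in MD1, and at most 0.198% in WT. The exception inside this stretch was Sept6 (X, 34451267 to 34529690), a septin gene between Nkrf and Upf3b. It had 3.48% and 5.76% in MD1 against 0 of 1180 WT reads, a limit of 0.254%. Sept6 rose in edgeR (adjusted p = 6.87e-13), but in both MD1 libraries its share lay far below those of its neighbours. C1galt1c1, the gene of the O-glycosylation chaperone Cosmc at the distal end, had 18.1% ± 2.14 in MD1 and 0.286% ± 0.404 in WT (SD, n = 2).

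A second set of high shares lay after a stretch without informative genes. Gria3, an AMPA glutamate receptor subunit gene, stood first with 6.33% and 9.57% in MD1 against 0.915% and 0.259% in WT. Behind it Xiap (X, 39421013 to 39462841), the gene of an inhibitor of caspases, had 39.4% and 38.9% in MD1 against 0.128% and 0.407% in WT. The rise of 38.9 points for Xiap rested on 5819 and 6384 reads in the MD1 libraries and passed in edgeR (adjusted p = 3.29e-104). On its sides Thoc2, an mRNA export factor gene, had 32.2% ± 0.996 in MD1 and 0% in WT, and the cohesin subunit gene Stag2 had 36.9% ± 2.03 in MD1 and 0.206% ± 0.291 in WT (SD, n = 2). All 3 rose, and in each of them the groups were far apart.

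Paternal reads were scarce in parts of the middle of the segment. Dcaf12l1 (X, 42139744 to 42143374), of the DDB1-CUL4 associated factor family, had 0% and 1.15% in MD1 against 1.07% and 0.920% in WT. Its groups overlapped, and it did not pass (adjusted p = 0.847, edgeR). Its relative Dcaf12l2 had 0 of 54 paternal reads in MD1 and 0 of 62 in WT, which allows a share of up to 5.56% in MD1. Smarca1, which encodes the ISWI-type ATPase SNF2L, had 0 of 101 in MD1 and 0 of 169 in WT, which allows up to 2.97% in MD1. Prr32 had 21.2% of 33 reads in MD1 replicate 1 and 1.75% of 57 reads in MD1 replicate 2, against 0% and 1.64% in WT, and did not pass (adjusted p = 0.143, edgeR), but passed without MD1 replicate 2 (adjusted p = 0.0377). The MD1 libraries of Prr32 disagreed by more than their distance from WT.

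Utp14a stood out from its neighbours. Utp14a (X, 45610111 to 45635626), which encodes a protein needed for processing of small-subunit ribosomal RNA, had 42.0% and 42.7% in MD1 against 2.10% and 0.943% in WT. The rise of 40.8 points passed in edgeR (adjusted p = 4.32e-79). The gene 9530027J09Rik, annotated on the opposite strand, overlaps its distal end, and without strand-aware counting reads there cannot be told apart, but it had only 0.0389 FPKM in MD1 and 0.0174 FPKM in WT. The next informative gene on the proximal side, Zdhhc9, a palmitoyltransferase gene, had 18.4% and 19.3% in MD1 against 1.26% and 0.646% in WT. The next informative gene on the distal side, Bcorl1, a transcriptional corepressor gene, had 2.30% and 5.58% in MD1 against 0.338% and 0% in WT. Each neighbour rose as well, yet in both MD1 libraries each lay over 20 points below Utp14a. Ocrl (X, 45265633 to 45319043), the gene of an inositol phosphatase of endosomes, had 26.0% and 25.7% in MD1 against 0.140% and 0.389% in WT. The 6 genes from Elf4 to Enox2 (X, 45764226 to 46641419) had MD1 means of 11.6% to 29.8%, among them the ETS factor gene Elf4 at 11.6% ± 0.960, the RNA-binding protein gene Rbmx2 at 29.8% ± 0.640 and Aifm1, whose product acts in mitochondria and in cell death, at 24.8% ± 1.24 (SD, n = 2). All 6 rose. Zfp280c had 26.2% and 24.4% in MD1, Slc25a14 16.3% and 21.9%, and Enox2 11.8% and 18.6%. Their WT means were at most 0.414%.

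Arhgap36 (X, 46823627 to 46853427), a regulator of hedgehog and protein kinase A signalling, had 0.268% and 0.301% in MD1 against 0 of 172 WT reads. That was 1 of 373 and 2 of 664 MD1 reads, and it did not pass (adjusted p = 0.493, edgeR). Its neighbour Igsf1 had 0 of 34 paternal reads in MD1 and 0 of 55 in WT. Stk26, a kinase gene, had 0 of 21 and 7 of 60 paternal reads in MD1 against 0 of 164 in WT. It was called higher (adjusted p = 0.00593, edgeR), but the call was lost without MD1 replicate 2 or without WT replicate 2, and in DESeq2.

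The glypican genes, which neighbour each other, had high shares in MD1. Glypicans are cell-surface proteoglycans that carry heparan sulfate and hold growth factors. Gpc4 (X, 49406195 to 49518100) had 42.3% and 40.7% in MD1 against 1.07% and 1.14% in WT. Gpc3 (X, 49625604 to 49967151) had 35.7% and 40.2% in MD1 against 1.26% and 1.54% in WT. The rises of 40.4 and 36.5 points passed in edgeR (adjusted p = 2.78e-102 and 3.92e-78), and each MD1 library stood far above each WT library. Hs6st2 (X, 48739814 to 49034779), which encodes an enzyme that adds sulfate to heparan sulfate, had 22.9% and 22.1% in MD1 against 0.0506% and 0.0363% in WT. Between Hs6st2 and the GTPase gene Rap2c, with 28.7% ± 0.280 in MD1 and 0.202% ± 0.123 in WT, lay the splicing regulator gene Mbnl3. Mbnl3 had 2.22% and 7.05% in MD1 against 0% and 0.591% in WT, so it rose (adjusted p = 5.69e-08, edgeR) while staying below both neighbours.

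Hprt (X, 50341255 to 50374837), which encodes the enzyme that salvages hypoxanthine and guanine, had 24.3% and 26.3% in MD1 and no paternal read among 1472 WT reads. A count of 0 there allows a WT share of up to 0.204%. The rise of 25.3 points passed in edgeR (adjusted p = 1.47e-56). Phf6, a chromatin reader gene just proximal to Hprt, had 31.8% and 35.3% in MD1 against 0.447% and 0.0749% in WT. Distal to Hprt the noncoding gene C430049B03Rik, whose RefSeq synonyms name the microRNAs mir-322, mir-351 and mir-503, had 27.0% and 35.8% in MD1 against 0% and 0.446% in WT. Both genes rose, as Hprt did. Fam122b had 6 of 35 and 8 of 32 paternal reads in MD1 against 0 of 44 in WT, and its call (adjusted p = 0.0151, edgeR) was lost in the same 3 settings as that of Stk26.

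Beyond these genes the shares were lower, with Mmgt1 as an exception. Mmgt1 (X, 53838689 to 53851096), which encodes a subunit of the endoplasmic reticulum membrane complex, had 33.2% and 34.3% in MD1 against 0.148% and 0.0649% in WT. Its proximal neighbour Ddx26b (named Ints6l in RefSeq) had 8.55% and 10.2% in MD1 against 0% in both WT libraries. The zinc-finger gene Zfp449 had 17.5% and 16.5% in MD1 against 0% and 0.803% in WT, and Mospd1 had 5.65% and 7.51% in MD1 against 0.315% and 0% in WT. All 3 of these rose, as Mmgt1 did. Fhl1 (X, 53984938 to 54046523), a LIM-domain protein gene of muscle and fibroblasts with more allele-specific reads than any other member, had 3.34% and 7.26% in MD1 against 0.230% and 0.179% in WT. The rise of 5.09 points passed in edgeR (adjusted p = 6.97e-47), although the share in MD1 replicate 2 was over 2-fold that in MD1 replicate 1. Mtap7d3 (X, 54051130 to 54075502; Map7d3 in RefSeq), a microtubule-associated protein gene, had 0 paternal reads of 389 in MD1 and 0 of 297 in WT, limits of 0.771% and 1.01%. Htatsf1, a splicing factor gene, had 17.6% ± 1.75 in MD1 and 0% in WT.

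At the distal end Arhgef6 (X, 54484662 to 54591906), an exchange factor gene for Rac and Cdc42, had 0% and 1.30% in MD1 against 0.316% and 0% in WT. These groups overlapped (adjusted p = 0.320, edgeR). On the proximal side, near Mospd1, Cxx1c (X, 50911099 to 50912311), of a family derived from a retrotransposon Gag gene, had 0% and 1.57% in MD1 against 0% and 1.00% in WT, and did not pass (adjusted p = 0.738, edgeR). Its near copy Cxx1a had 5.56% of 18 reads and 23.1% of 26 reads in MD1 against 0 of 39 in WT (adjusted p = 0.0696, edgeR). With a replicate block in the same test it passed (adjusted p = 0.0294, edgeR). Without MD1 replicate 1 Cxx1a was called higher (adjusted p = 0.0320, edgeR). Reads can be split wrongly between such copies, so both values are uncertain, as are those of Rbmx, Mcts1 and Slc25a5, which have retrocopies elsewhere. Rbmx, an RNA-binding splicing regulator gene, had 6.14% and 6.39% in MD1 against 0.360% and 0.569% in WT. Rbmx rose, with no overlap of the groups (adjusted p = 1.88e-14, edgeR). Distal to it Fgf13, of the fibroblast growth factor family, had 1 of 230 paternal reads in MD1 and 0 of 165 in WT (adjusted p = 0.494, edgeR).

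In WT no member reached a share of 5%, and the mean was 1% or more at 3 genes. These were Utp14a at 1.52% ± 0.818, Gpc3 at 1.40% ± 0.194 and Gpc4 at 1.10% ± 0.050 (SD, n = 2), in each case with paternal reads in both WT libraries. In WT replicate 1, 18 of 857 reads of Utp14a were paternal, and in WT replicate 2, 9 of 954. At 25 of the 62 genes no WT read was paternal, and at 5 genes (Slc25a43, Dcaf12l2, Smarca1, Igsf1 and Mtap7d3) no MD1 read was. Of the 14 genes that did not pass, 8 averaged fewer than 100 reads per library. With 100 or more reads 46 of 52 genes rose, and with fewer 2 of 10 did, so the shallow genes say little about silencing where no call was made.

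Promoter sequences are shown for both ends of this range and between, since methylation of CG dinucleotides in promoters is a known part of X silencing. Each window runs from 250 bases before to 50 after the RefSeq gene start, with coordinates in GRCm38.p6, and capitals mark each CG. They were chosen after the shares were seen. Zbtb33 (chrX:38189543-38189842, plus strand) has 34 CG in the window, Utp14a (chrX:48256684-48256983, plus strand) 21, Hprt (chrX:52987828-52988127, plus strand) 22 and Mtap7d3 (chrX:56822276-56822575, minus strand) 13.
Zbtb33: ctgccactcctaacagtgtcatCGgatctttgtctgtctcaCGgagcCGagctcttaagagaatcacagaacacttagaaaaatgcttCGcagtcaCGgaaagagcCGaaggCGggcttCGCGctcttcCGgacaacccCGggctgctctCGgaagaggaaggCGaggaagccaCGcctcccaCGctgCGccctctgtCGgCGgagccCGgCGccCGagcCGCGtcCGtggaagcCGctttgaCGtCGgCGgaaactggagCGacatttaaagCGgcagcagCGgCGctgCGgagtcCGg
Utp14a: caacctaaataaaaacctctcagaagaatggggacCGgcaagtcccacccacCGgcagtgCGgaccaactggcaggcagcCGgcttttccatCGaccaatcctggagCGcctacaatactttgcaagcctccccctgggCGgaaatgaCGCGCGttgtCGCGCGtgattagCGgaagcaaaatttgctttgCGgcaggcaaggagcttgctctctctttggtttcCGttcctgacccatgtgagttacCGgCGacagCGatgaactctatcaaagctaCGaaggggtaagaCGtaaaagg
Hprt: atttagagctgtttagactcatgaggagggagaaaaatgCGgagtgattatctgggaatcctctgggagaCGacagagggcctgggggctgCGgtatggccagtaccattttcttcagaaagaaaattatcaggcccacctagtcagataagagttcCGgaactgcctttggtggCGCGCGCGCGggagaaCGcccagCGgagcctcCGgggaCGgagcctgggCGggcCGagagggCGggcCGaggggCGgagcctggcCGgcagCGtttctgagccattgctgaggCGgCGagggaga
Mtap7d3: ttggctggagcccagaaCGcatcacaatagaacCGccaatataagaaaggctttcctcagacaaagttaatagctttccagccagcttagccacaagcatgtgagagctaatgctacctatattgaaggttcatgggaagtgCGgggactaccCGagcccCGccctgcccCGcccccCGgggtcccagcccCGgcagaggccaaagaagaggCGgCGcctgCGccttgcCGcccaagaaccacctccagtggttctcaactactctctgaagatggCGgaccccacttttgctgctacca
The windows of Gpc3 and Gpc4 hold 30 and 22 CG. Other genes went the opposite way. Mcts1 and Xiap, with 3 and 5 CG, had mean MD1 shares of 39.9% and 39.2%. Il13ra1 and Dock11, with 28 and 25 CG, had 2.32% and 8.13%. Mcts1 and Xiap had 2 and 3 windows, so their numbers depend on the start taken. A window was found for 51 of the 62 genes (82.3%), using the outermost start where a gene had several. The median was 14 CG, with a range of 1 to 35, and 70.6% of windows held 10 or more. Of all 27025 RefSeq windows 94.2% held a CG and 43.97% held 10 or more, while 73.3% did among 285 informative genes elsewhere on X. Across the 51 genes the number of CG and the MD1 share had a Spearman correlation of 0.383, against 0.180 across the 285 genes, as a description of genes that share the same 4 libraries. No methylation was measured here.

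Counts by functional group are set beside the 74.4% of all informative X genes that rose, and small groups cannot be told from that share by counts alone. All 7 RNA processing and translation genes rose, with a median rise of 32.2 points, and so did all 4 measured genes of the ubiquitin system and cell death, with a median of 33.4 points. The 3 genes of glypicans and heparan sulfate rose by a median of 36.5 points. Among 10 chromatin and transcription genes 9 rose and Smarca1 did not pass, with a median of 21.4 points over the 10. All 7 measured genes of endosomes, lysosomes and membrane traffic rose, by a median of 17.8 points. Of 9 genes of small G proteins, kinases and the cytoskeleton 6 rose, with a median of 5.09 points over the 9, and of 6 measured ligands, receptors and channels 3 rose, with a median of 2.73 points. The median over all 391 informative X genes was 11.4 points. Of 2 measured mitochondrial carrier genes Slc25a14 rose. Of the 2 measured Gag-like genes neither passed in edgeR with all libraries and no replicate block. Neither Sox3 nor Vgll1, which encode developmental transcription regulators, was informative, and no immune cell gene (Cd40lg, Sh2d1a, Sash3) was. The groups differ in read depth and expression level, whose part in these counts was not tested.

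Total RNA of the segment was somewhat higher in MD1. FPKM was given as 1 mean per group with no spread, so ratios have no replicate check, and in such bulk samples fewer cells of a type and less RNA per cell cannot be told apart. Over the 64 members with a mean FPKM of 1 or more, the median log2 of (FPKM + 1) in MD1 minus WT was 0.22, and 47 were above 0. The rest of X had a median of 0.22 over 332 genes, and the autosomes 0.0012 over 11001. The share of genes above 0 was 73.4% in the segment, 66.6% in the rest of X and 50.2% on the autosomes. By paternal share in MD1, the median was 0.67 for the 17 genes at 30% or more, 0.22 for the 21 genes at 10 to 30%, and 0.012 for 21 genes under 10%. Across 59 informative members the Spearman correlation of MD1 share and log2 ratio was 0.519, and across 297 informative genes elsewhere on X it was 0.683, both as descriptions.

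The log2 (FPKM + 1) scale understates changes of low genes. On it at least 2-fold higher FPKM in MD1 was seen for 3 of 64 members (4.69%), beside 1.39% of all 11399 genes. FPKM was 2-fold lower for 1 of 64 (1.56%), beside 2.81% of all genes. Elsewhere on X 16 of 332 genes were 2-fold higher and 8 were 2-fold lower, so such changes were not particular to the segment. The higher members were Utp14a with 36.8 FPKM in MD1 and 17.1 FPKM in WT, Arhgap36 with 6.65 and 1.84, and Slc25a5, a mitochondrial ADP/ATP carrier gene, with 459 and 207. Slc25a5 had no allele-specific read in any library, so its paternal share is unknown. The lower member was Gpc3, with 33.6 FPKM in MD1 and 75.8 FPKM in WT. These counts depended on the pseudocount. With 0.1 in place of 1, 5 members were 2-fold higher, beside 2.27% of all genes, and 3 were 2-fold lower, beside 4.33%. The added ones were Apln and Rbmx2, which were higher, and Stk26 (2.32 FPKM in MD1 and 5.22 FPKM in WT) and Smarca1 (0.967 FPKM in MD1 and 2.10 FPKM in WT), which were lower.

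**Figure D2:**
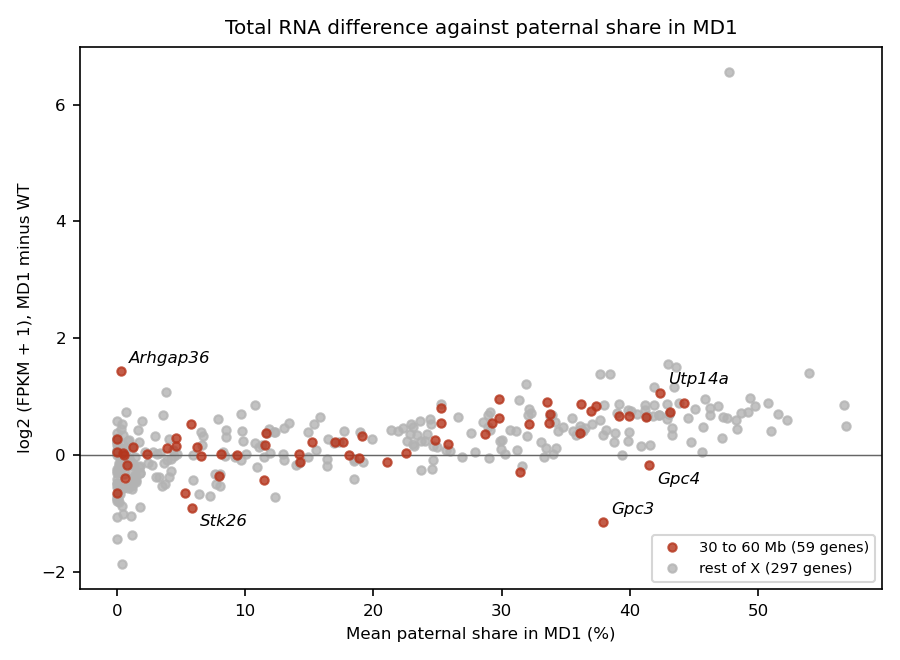
Difference in log2 (FPKM + 1), MD1 minus WT (vertical axis), against the mean paternal share in MD1 (horizontal axis, percent), 1 point per informative X gene with a mean FPKM of 1 or more. Red points are the 59 genes of the segment and grey points the 297 genes elsewhere on X; Gpc3 lies at -1.15 despite a share of 37.9%, and Arhgap36 at 1.43 with a share of 0.285%.

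The FPKM of each group was split by allele with the read-weighted paternal share, which takes reads over variants to stand for the whole transcript. For the 17 genes at 30% or more, the paternal parts summed to 362 FPKM in MD1 against 3.75 FPKM in WT. The maternal parts of these genes summed to 581 FPKM in MD1 against 740 FPKM in WT, and their median log2 change was -0.00046, with 8 of 17 higher. For Zbtb33 the maternal part was 8.12 FPKM in MD1 against 7.41 FPKM in WT, and the paternal part was 6.45 FPKM in MD1 against 0.00286 FPKM in WT. For Xiap the maternal part was 11.3 FPKM in both groups, and for Hprt it was 92.0 FPKM in MD1 against 84.4 FPKM in WT beside a paternal part of 31.7 FPKM in MD1. Utp14a had a maternal part of 21.2 FPKM in MD1 against 16.8 FPKM in WT.

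At the glypican genes the maternal part was lower in MD1. The maternal part of Gpc3 was 20.7 FPKM in MD1 against 74.8 FPKM in WT, and its paternal part was 12.8 FPKM in MD1 against 1.06 FPKM in WT. The reads show the same by library, with 379 and 470 B6 reads of Gpc3 in MD1 against 1640 and 1536 in WT. The groups did not overlap, although the MD1 libraries had more allele-specific X reads in all (704635 and 806626 in MD1, 544330 and 521768 in WT). The maternal part of Gpc4 was 80.7 FPKM in MD1 against 155 FPKM in WT. Its B6 reads, 1861 and 1355 in MD1 against 2596 and 1651 in WT, overlapped between the groups as raw counts. These were not scaled to the higher X read totals of the MD1 libraries, and overlap after scaling was not tested. Fhl1 had a maternal part of 155 FPKM in MD1 against 259 FPKM in WT. Its raw B6 reads overlapped too, at 6663 and 10763 in MD1 against 6517 and 17833 in WT. Arhgap36 had 372 and 662 B6 reads in MD1 against 76 and 96 in WT, so its higher level was on the maternal allele. Of the 48 genes whose paternal share rose, 10 had lower total FPKM and 26 a lower maternal part in MD1. The maternal part was higher in MD1 at 28 of the 59 informative members and at 110 of 297 informative genes elsewhere on X. With genes that were not informative included, total FPKM was higher in MD1 at 73.4% of 64 members and at 66.6% of 332 genes elsewhere on X. A lower maternal part was thus not particular to the segment. Both sets hold risen and other genes, so these counts do not compare risen genes with the others.

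**Figure D3:**
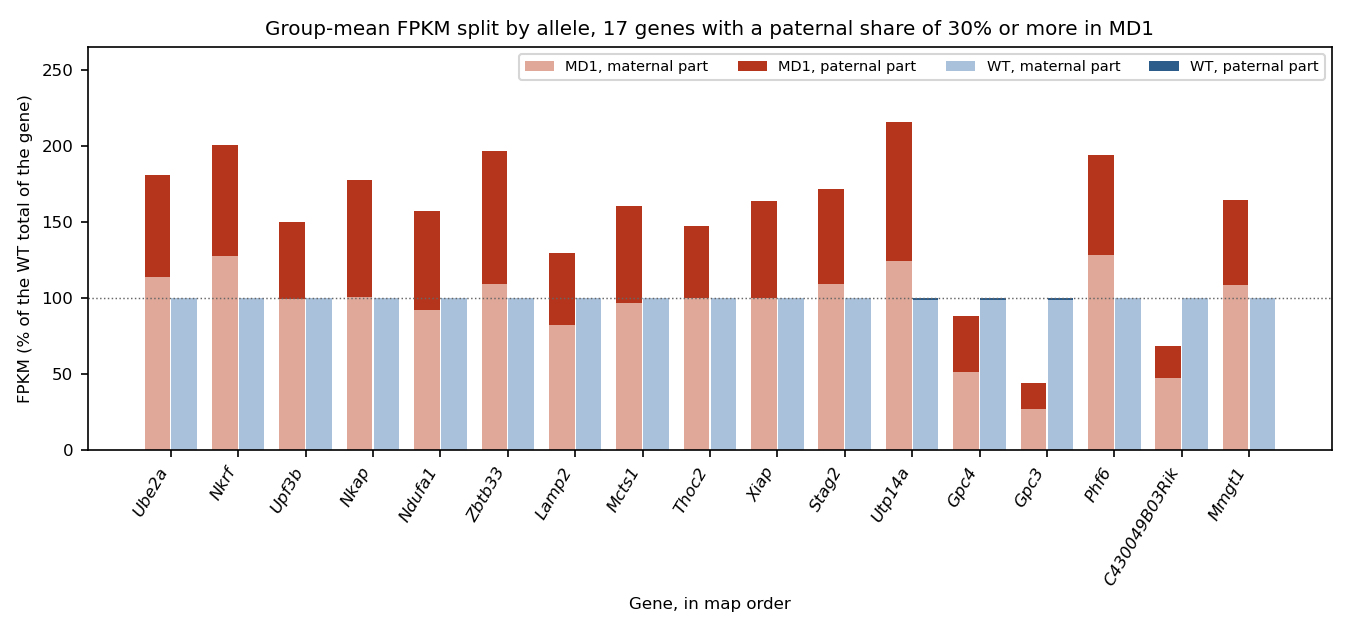
FPKM of each group split into a maternal part (light) and a paternal part (dark), in percent of the WT total of the same gene (vertical axis), for the 17 genes with a paternal share of 30% or more in MD1 in map order. Red bars are MD1 and blue bars WT, each made from 1 group mean with no error; Utp14a reached 216% of its WT total in MD1 and Gpc3 44.3%.

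Whether the segment differed from the rest of X depended on the summary. Its mean share minus that of 328 informative genes elsewhere on X was -0.332 and 1.69 points in the MD1 libraries, against -0.622 and -0.511 points in the WT libraries. The groups did not overlap, but the difference of 1.25 points was smaller than the SD within MD1 (1.43, n = 2), and the permutation p was again 0.333 (exact, two-sided). Medians over genes were 17.3% and 17.6% in the MD1 libraries in the segment and 12.7% and 12.3% elsewhere, with 0% in WT in both, so the difference was 4.96 points, larger than the SD within MD1 in the segment (0.198) and elsewhere (0.262). With read-weighted shares the difference was -4.92 points, the opposite direction, and also larger than the SDs. Read-weighted shares were 25.2% ± 0.397 in MD1 and 0.272% ± 0.0278 in WT in the segment, and 30.7% ± 1.52 in MD1 and 0.793% ± 0.0627 in WT elsewhere (SD, n = 2). In WT 0 of the 62 genes had a mean share of 5% or more, against 8 of 328 elsewhere. The highest MD1 share was 44.2% in the segment and 56.8% elsewhere.

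**Figure D4:**
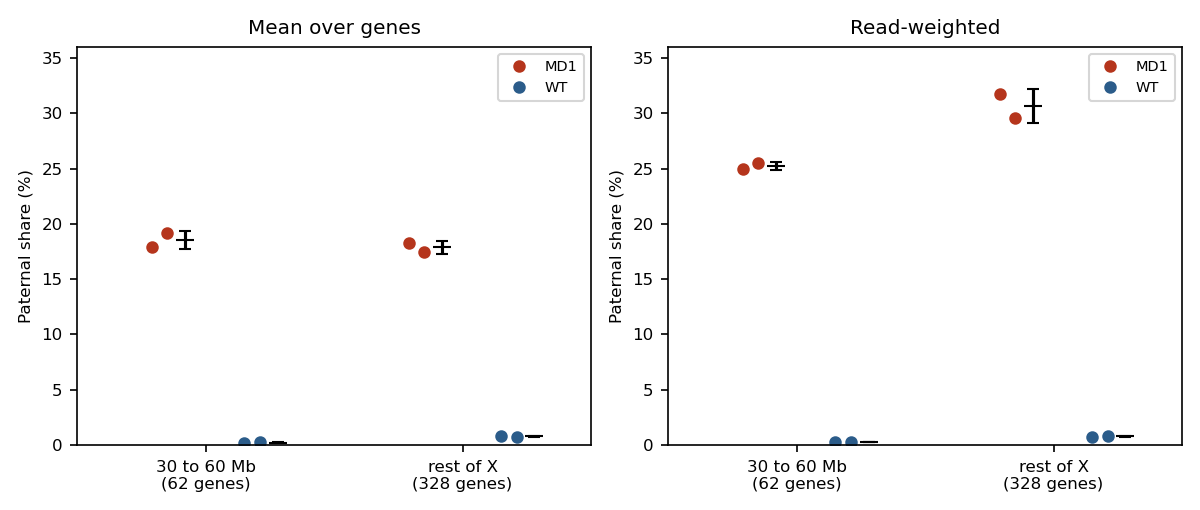
Paternal share in percent (vertical axis) of the segment and of the rest of X, as the mean over genes (left) and weighted by reads (right). Dots are libraries (MD1 red, WT blue) and bars the mean ± SD of 2 libraries; in MD1 the segment lies at 18.5% by genes and 25.2% by reads, and the rest of X at 17.9% and 30.7%.

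Genes with higher shares had shorter median spans and higher median WT FPKM, in the segment and elsewhere. The median span was 23.98 kb for genes at 30% or more in MD1, 33.6 kb at 10 to 30% and 51.7 kb under 10%, and their median WT FPKM was 17.1, 13.47 and 3.57. Elsewhere on X the spans were 17.5, 20.8 and 41.2 kb and the WT FPKM 10.9, 10.02 and 4.08. Spans covered a wide range within each class (3.65 to 342 kb at 30% or more), and the Spearman correlation of span and MD1 share in the segment was -0.106. With MD1 share, WT FPKM had a Spearman correlation of 0.584 in the segment and 0.335 elsewhere on X. Mean reads per gene had 0.531 in the segment and 0.348 elsewhere on X. The part of expression level and read depth in the shares was not tested. The nearest informative genes outside the segment were Wdr44, which lies proximal with 18.1% and 13.0% in MD1 against 0% in WT, and Slitrk2, distal with 0 of 36 paternal reads in MD1 and 1 of 61 in WT.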

How the data were processed

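Polyadenylated RNA was made into stranded libraries, per the labels' protocols. The authors deposited allele-specific read counts per X gene and library, the JF1 fraction of these reads, and 1 mean FPKM per group. The submitters' processing notes name mm9, Cufflinks 2.2.1 and Cuffdiff. Neither the aligner, the source of variants nor strand use in counting is stated in these labels. A mapping preference for B6 reads, if any, would lower the paternal shares of both groups. Fraction times reads was whole within 0.001, which gave JF1 counts. A fraction was given from 10 reads on. Starts, counted from 0 in the table, were moved up by 1.

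JF1 and B6 counts of the 391 informative X genes other than Xist were tested with edgeR 4.0.16 (R 4.3.3), two-sided, with terms for library, allele and allele by genotype, the same library size for both alleles, and Benjamini-Hochberg adjustment at an FDR of 0.05. Library means were compared by exact permutation. DESeq2 1.42.0, other filters, TMM factors, a replicate block and leaving out libraries were alternatives. FPKM has no replicates, so ratios use a pseudocount of 1 with no test. Limits for a count of 0 are 3 counts of the total and cover counting error only. Since the origin of replicates is not labelled, the spread behind each p-value may be only technical. Within groups the replicates differed beyond sampling noise in their reads per gene (chi-square per degree of freedom 90.6 in MD1 and 98.1 in WT). The library term of the fit takes up each gene's reads per library. This spread is therefore not that of the paternal shares behind the p-values.

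The members, gene lists and tests were chosen with earlier results of these data known, and the bounds of 10% and 30% and the bins of 5 Mb after the shares were seen. Values per library are given for Utp14a, Gpc3, Gpc4 and Hprt, the 8 members with most reads, the 6 highest and 6 lowest MD1 shares at 100 or more reads, and members past 2-fold in FPKM. Any other member could be named in map order. Values of a few members are not reported here.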

Additional observations from a re-analysis of the deposited data

How the results depend on the processing

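The count of 48 risen members was 46 with DESeq2, 48 with TMM factors, 48 without a read minimum, 47 at a mean of 50 or more reads and 46 to 49 with a library left out, and 46 members held in all 4 of these fits. Stk26 and Fam122b were lost in DESeq2, without WT replicate 2 (46) and without MD1 replicate 2 (47). Fits with a library left out assume that the lone library varies like those of the other genotype. The share rise of 18.3 points was 17.5 to 24.97 under other summaries and filters and 17.7 to 18.9 with a library left out. The replicate numbers are shared by the groups, but no label says that they pair libraries. With a replicate block 49 members rose, the added one being Cxx1a (adjusted p = 0.0294, edgeR). Deviations of same-numbered libraries had a correlation of 0.394 over 391 genes in reads and 0.186 in share. With 2 libraries per group, swapping the numbers in 1 group only turns the sign of these values. They therefore cannot show whether the libraries pair. The difference from the rest of X of 1.25 points was reversed with read-weighted shares (-4.92), 4.96 with medians and 2.36 at 100 or more reads, and 2.26 without MD1 replicate 1 and 0.235 without MD1 replicate 2. The cause was not tested. The median log2 FPKM ratio of 0.22 was 0.25 with a pseudocount of 0.1 (5 members 2-fold higher and 3 lower, in place of 3 and 1), 0.36 at a mean FPKM of 5 or more, and 0 without a filter, where genes near 0 enter. Of 189 repeated values of the members named by the rule, all stayed on their side of the threshold, and 182 also kept their direction. The other 7 turned direction in genes that passed in no setting. The log2 odds ratio of Mtap7d3, 0.12 with all libraries, was -0.38 in DESeq2 (adjusted p = 0.949), -0.19 without WT replicate 2 and -0.08 without MD1 replicate 1 (adjusted p = 1 in both edgeR fits). That of Dcaf12l1, -0.28, was 0.25 without MD1 replicate 1 (adjusted p = 0.957, edgeR; 0.286 to 0.957 with a library left out). That of Arhgef6, 1.93, was -1.47 without MD1 replicate 2 (adjusted p = 0.743, edgeR; 0.182 to 0.743 with a library left out). That of Cxx1c, 0.89, was -0.30 without WT replicate 1 (adjusted p = 0.978, edgeR) and -2.09 without MD1 replicate 2 (adjusted p = 0.688, edgeR; 0.357 to 0.978 with a library left out).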

Other observations

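Among members outside the comparison, 5 had a share in at least 1 library of each group. In Tmem255a, whose end overlaps that of Zbtb33 on the opposite strand, 4 of 11 reads of MD1 replicate 2 were paternal (36.4%, Wilson 95% interval 15.2 to 64.6%) against 0 of 13 in WT replicate 2 (0 to 22.8%), so the intervals overlapped. Apln, which encodes the peptide ligand apelin, had 2 of 80 paternal reads in the MD1 libraries together and 0 of 23 in WT replicate 2. The 8 reads of WT replicate 1 had no share. Its FPKM was 6.86 in MD1 and 3.33 in WT. Rnf113a1, a RING-finger protein gene beside Ndufa1, had 5.17 FPKM in MD1 and 3.05 FPKM in WT with no allele-specific read.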
